A study of Mus musculus with 18 samples.

Results

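Immunoglobulin genes encode the heavy and light chains of antibodies. In mouse tumours grown from 3 lines, with and without OK-432, their summed level was led in every library by Ighm, the mu heavy chain constant gene. The 4 heavy chain J segments came next in CT26 tumours, while in the other tumours light chain genes and segments together summed higher than these J segments in the group means. The genes were taken by name, as rows of the expression table beginning with Igh followed by v, j, m, d, g, a or e, with Igk followed by v, j or c, or with Igl followed by v, j or c. Of 55291 rows, 394 matched, and 48 of these had a TPM (a transcript level corrected for length, on a scale where every library has an equal sum) above 0 in at least 3 of 18 libraries. Of the other matching rows, 255 were listed at 0 in all 18 libraries and 91 were above 0 in 1 or 2 of them. One of the 48, Ighmbp2, is an ordinary protein-coding gene for a helicase named for binding the mu switch region, and is not an immunoglobulin gene. It is given separately, which leaves 47 immunoglobulin genes and segments.

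The tumours were subcutaneous and were collected on day 14 for bulk RNA sequencing. Groups of 3 libraries each came from LL2 tumours with OK-432 (LL2 OK432) and without it (LL2 Ctrl), from CT26NYESO1 tumours with and without it, and from CT26 tumours with and without it. OK-432 is a heat- and penicillin-treated preparation of Streptococcus pyogenes, and it was put into the tumours for 24 hours. LL2 stands for LL/2, the Lewis lung carcinoma line, which arose in C57BL/6 mice. CT26 is a colon carcinoma from BALB/c mice, and CT26NYESO1 is the CT26 line that bears the name of NY-ESO-1, a human tumour antigen. The hosts were BALB/cJ or C57BL/6J mice. The labels do not state which line went into which strain, the age of the animals or what the controls received. Whether each library is its own mouse is not stated either, so p-values reflect only the spread among these libraries, and that spread may be technical. In bulk tissue, fewer cells of a type and less RNA per cell cannot be told apart.

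A heavy chain V region is assembled in developing B cells by joining 1 V, 1 D and 1 J segment, which lie upstream of the constant genes. The joined exon is spliced first to Ighm and Ighd, and class switching later places a downstream gamma, epsilon or alpha constant gene beside it. Light chain genes are joined from V and J segments at the kappa or the lambda locus, and a secreted antibody needs both chains. Unjoined heavy chain loci can also be transcribed through the D segment nearest to J and through the J and mu region, which gives sterile transcripts that hold no V segment. The reference build, mm10, is C57BL/6, whereas BALB/c mice carry other alleles of many V segments and have Ighg2a where C57BL/6 has Ighg2c. How such alleles moved the TPM values was not tested.

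Of the 47, 18 lie at the heavy chain locus on chromosome 12, 22 at the kappa locus on chromosome 6 and 7 at the lambda locus on chromosome 16. All 4 heavy chain J segments and all 5 kappa J segments were members, against 6 of 113 heavy chain V segments, 16 of 100 kappa V segments and 1 of 17 heavy chain D segments. Members included 6 of 8 heavy chain constant genes, the exceptions being Ighg3 and Ighe. The threshold fell among low values. The 13 matching genes above 0 in exactly 3 libraries reached at most 0.136 to 0.866 TPM, and the 30 above 0 in exactly 2 reached 0.0800 to 1.11 TPM.

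Ighj1, Ighj4 and Ighj2 had the highest mean TPM of single members after Ighm, and Ighj3 followed Igkc. The 4 heavy chain J segments and Ighd4-1 are shown here because they lie beside Ighm in one stretch of the genome. All are on the minus strand of chromosome 12 in mm10, from GENCODE M21, and each is written in the direction of transcription. The letters in capitals, TGGGG, hold the TGG codon of the tryptophan that begins the conserved W-G-x-G motif of heavy chain J regions.
Ighd4-1, chr12:113430528-113430538: ctaactgggac
Ighj1, chr12:113429781-113429833: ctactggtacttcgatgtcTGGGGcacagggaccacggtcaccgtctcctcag
Ighj2, chr12:113429468-113429515: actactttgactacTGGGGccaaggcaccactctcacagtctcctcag
Ighj3, chr12:113429085-113429132: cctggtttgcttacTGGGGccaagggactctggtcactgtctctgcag
Ighj4, chr12:113428514-113428567: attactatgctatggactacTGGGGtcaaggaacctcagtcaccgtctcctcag
TGGGG or its reverse complement CCCCA was found in 4 of 4 heavy chain J segments and in 0 of 10 light chain J segments. The first 48 bases of 12.3% of 141685 GENCODE M21 transcripts held either form. The J transcripts shown are 48 to 54 bases long and Ighd4-1 has 11 bases, so their TPM rests on very short targets. The TPM of the J segments can be read as signal over the J region, not as a count of rearranged antibodies.

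Ighd4-1, the J segments and Ighm lie within 11.98 kb (chr12:113418558-113430538). This stretch holds 9 annotated genes, of which 6 are members. The other 3 are annotated microRNA genes of 70 to 78 bases, Gm22175, Gm24022 and Gm25747, which averaged 0.518, 0.773 and 0.592 TPM over all libraries and are named here after their values were seen. Levels within the stretch were uneven, since Ighd4-1 averaged 0 to 1.01 TPM over the groups and Ighm 6.52 to 82.5 TPM. On both sides of the stretch the levels were low beside Ighm, but those of Ighd and Igha overlapped the range of Ighd4-1. Upstream, the D segments other than Ighd4-1 averaged between 0 and 0.0819 TPM in each group, the highest being Ighd1-1 in CT26 OK432 tumours (named after its value was seen). Downstream, Ighd began 14.2 kb from Ighd4-1 and averaged 0.112 to 0.629 TPM over the groups, and Igha, 170 kb away, averaged 0.00848 to 2.23 TPM.

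**Figure D1:**
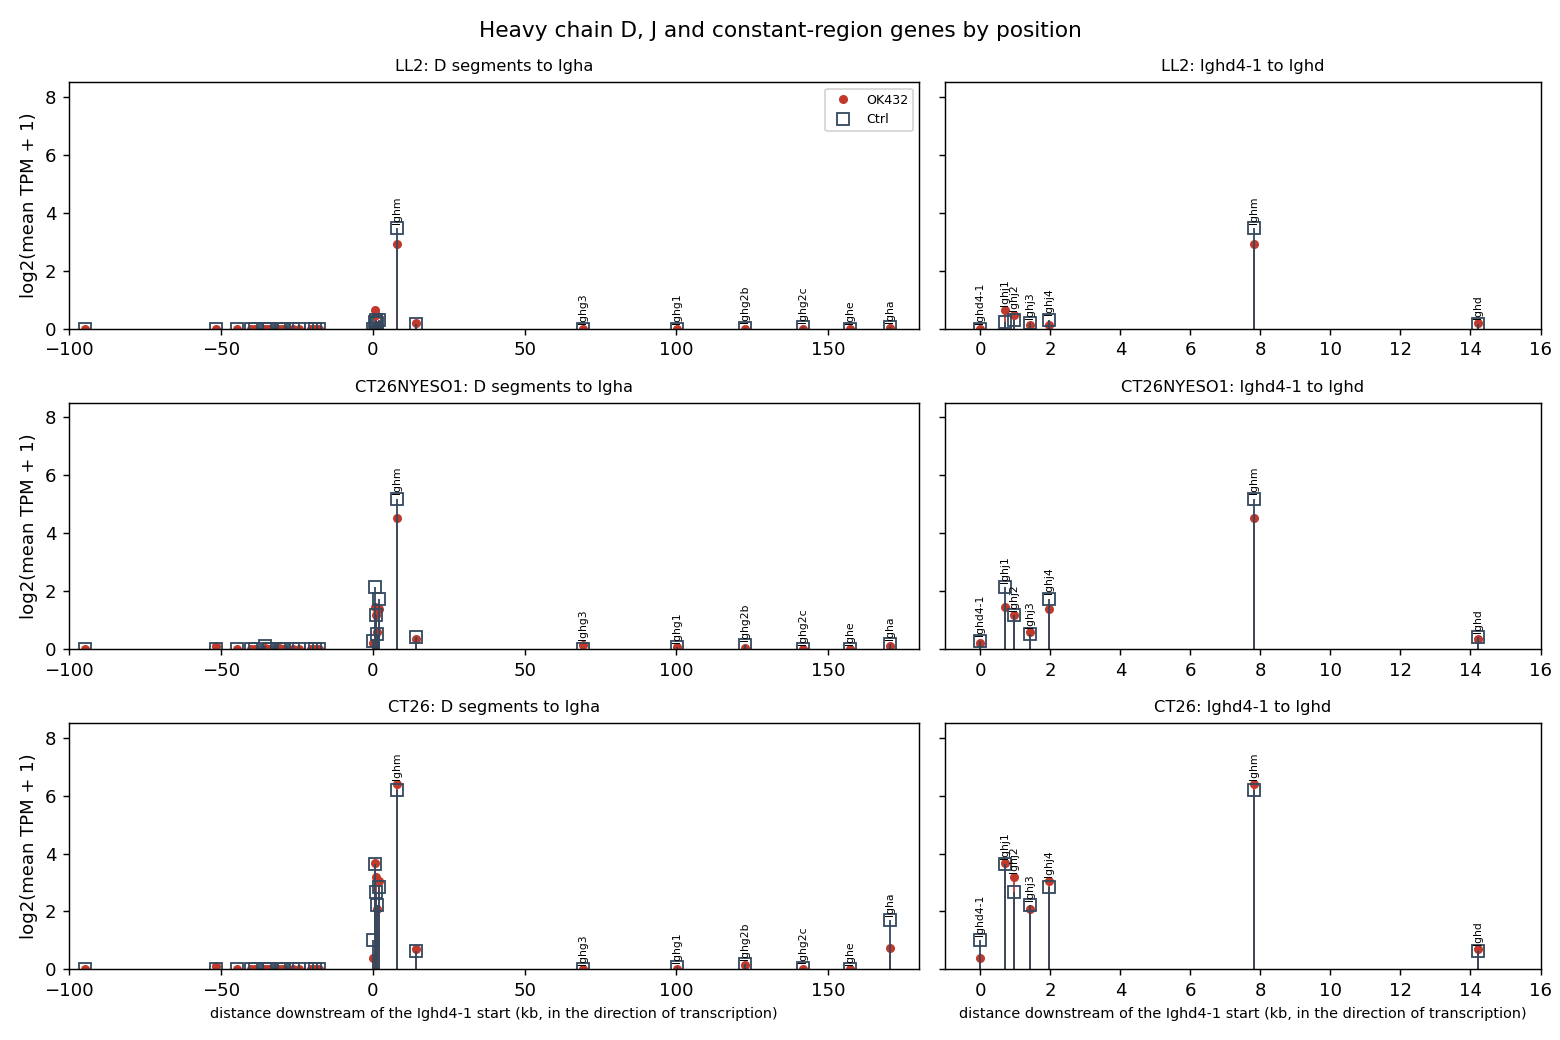
Heavy chain D, J and constant genes by distance downstream of Ighd4-1 (x axis, kb) against log2(mean TPM + 1) of 3 libraries (y axis), for LL2, CT26NYESO1 and CT26 tumours from top to bottom, with OK432 as filled red circles and Ctrl as open dark squares. The right column enlarges the stretch from Ighd4-1 to Ighd, where Ighm reached mean levels of 82.5 TPM in CT26 OK432 and 72.2 TPM in CT26 Ctrl tumours, while nearly all D segments and gamma constant genes stayed near 0.

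Ighm was the highest member in each library and held 49.8 to 88.9% of the members' summed TPM, with a median of 67.4%. It had 4.93, 10.3 and 4.36 TPM in LL2 OK432 tumours, against 10.8, 10.6 and 8.66 TPM in LL2 Ctrl tumours. In CT26NYESO1 tumours it had 22.4, 29.6 and 13.2 TPM with OK432, against 61.4, 27.0 and 18.4 TPM in Ctrl. In CT26 tumours it had 64.0, 93.8 and 89.8 TPM with OK432, against 71.2, 64.3 and 81.1 TPM in Ctrl. Every LL2 library was below every CT26NYESO1 library, and every CT26NYESO1 library was below every CT26 library, while OK432 and Ctrl libraries overlapped within each tumour type. Of the 47 members, only Ighm and Ighd, the delta constant gene co-expressed with Ighm on naive B cells, were above 0 in all 18 libraries.

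The 4 heavy chain J segments, which supply the end of the V region and the splice donor to the constant gene, followed Ighm in order across tumour types but not in proportion. Their summed TPM was 0.485, 2.20 and 0.615 in LL2 OK432 tumours, against 0.253, 0.944 and 1.09 in LL2 Ctrl tumours. In CT26NYESO1 tumours it was 5.56, 8.04 and 1.58 with OK432, against 14.1, 7.51 and 0.538 in Ctrl. In CT26 tumours it was 26.5, 23.7 and 40.4 with OK432, against 23.4, 21.8 and 34.8 in Ctrl. The CT26 libraries were all above the other 12, and the third libraries of CT26NYESO1 OK432 and CT26NYESO1 Ctrl stood within the LL2 range. Per 100 TPM of Ighm the J segments had 2.34 to 45.0 TPM, with a median of 23.9, and the CT26 libraries held 25.3 to 45.0. Ighj1 was the highest of the J segments, at 4.82 TPM over the 18 libraries, before Ighj4 at 2.95, Ighj2 at 2.76 and Ighj3 at 1.33 TPM. The differences between the J segments were not tested.

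**Figure D2:**
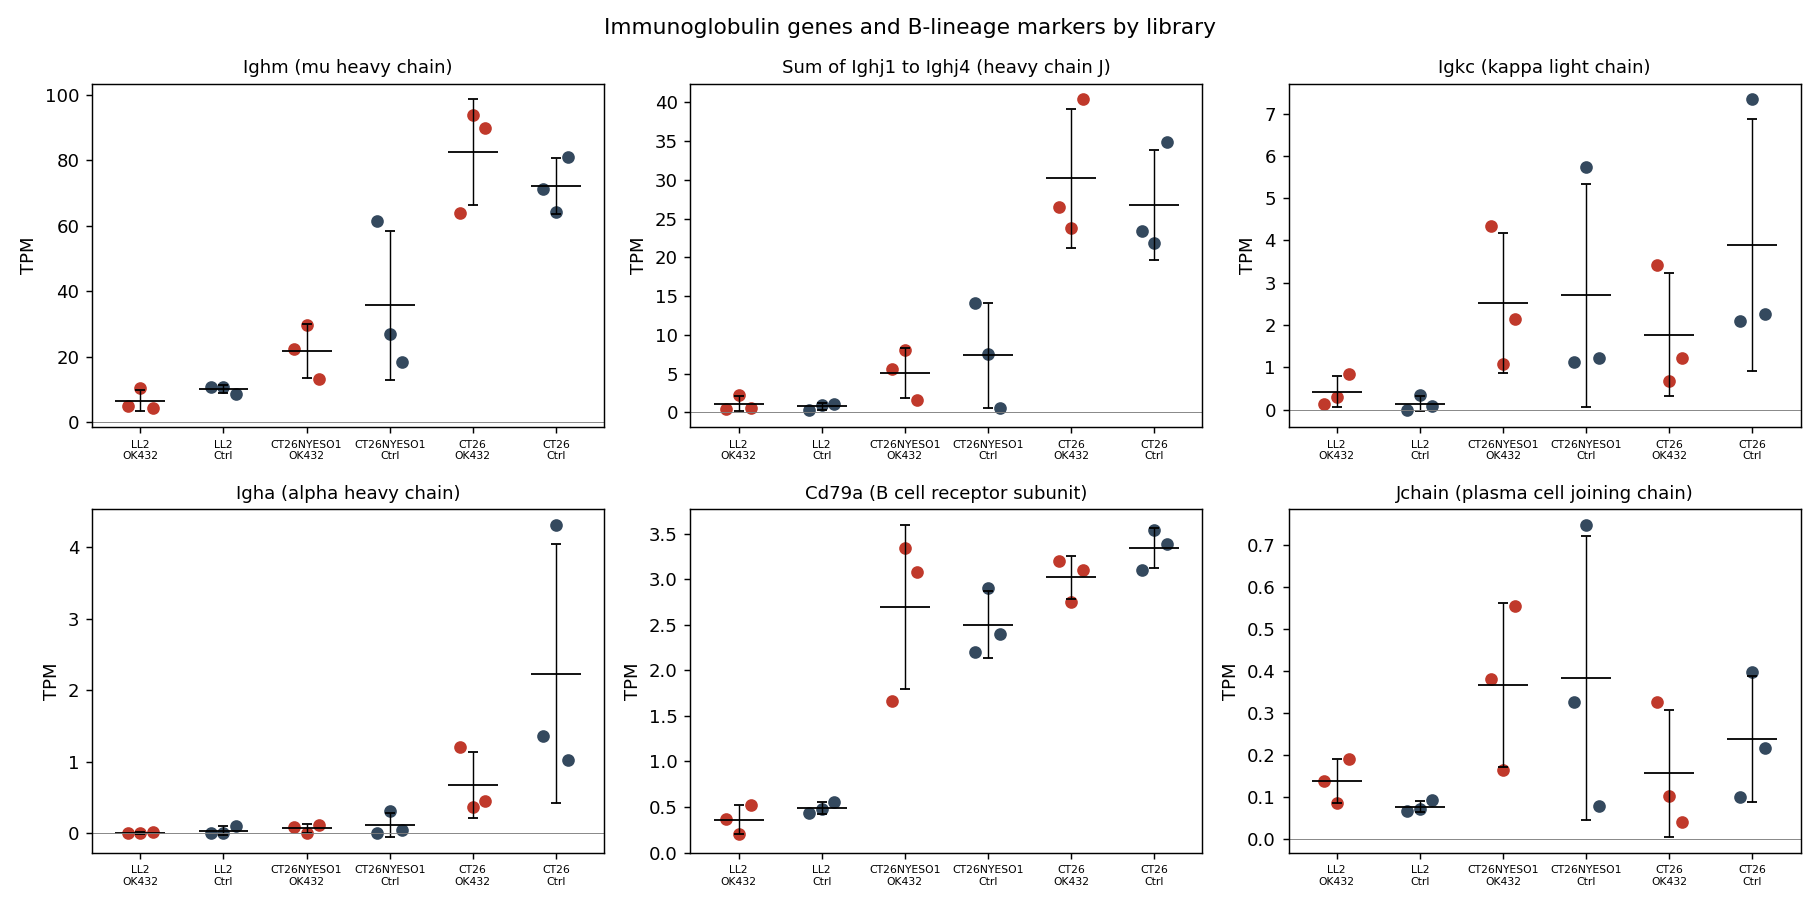
TPM (y axis, linear) of Ighm, the summed heavy chain J segments, Igkc, Igha and the markers Cd79a and Jchain in the 6 groups (x axis), with a point per library, a line at the mean and bars of 1 SD (n = 3). Ighm and the J segments step up from LL2 to CT26NYESO1 to CT26. Igkc and Jchain vary widely between libraries within several groups, with Igkc highest at 7.34 TPM in 1 CT26 Ctrl library.

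Light chain genes were far lower than Ighm. The 22 kappa members summed to 0.767 and the 7 lambda members to 0.540 TPM in LL2 OK432 tumours, against 0.835 and 0.738 TPM in LL2 Ctrl tumours. In CT26NYESO1 tumours the kappa and lambda sums were 6.22 and 3.33 TPM with OK432, against 6.11 and 2.68 TPM in Ctrl. In CT26 tumours they were 4.75 and 1.75 TPM with OK432, against 8.54 and 2.47 TPM in Ctrl. Kappa sums exceeded lambda sums in all 6 group means. Igkc, the kappa constant gene used by most mouse antibodies, had 0.140, 0.291 and 0.836 TPM in LL2 OK432 tumours, against 0, 0.340 and 0.0755 TPM in LL2 Ctrl tumours. In CT26NYESO1 tumours it had 4.34, 1.08 and 2.15 TPM with OK432, against 1.13, 5.73 and 1.23 TPM in Ctrl. In CT26 tumours it had 3.43, 0.686 and 1.21 TPM with OK432, against 2.09, 7.34 and 2.27 TPM in Ctrl. Libraries above 4 TPM were 3 in number, the first of CT26NYESO1 OK432, the second of CT26NYESO1 Ctrl and the second of CT26 Ctrl, and these were not the libraries with the most Ighm. The 4 light chain constant genes among the members summed to 1.27 to 31.1 TPM per 100 TPM of Ighm, with a median of 8.86. Of the lambda constant genes, Iglc3 averaged 0.633 TPM and Iglc2 0.370 TPM over the 18 libraries, and Iglc1 was 0 in all 6 LL2 libraries. Lambda constant genes are near copies of each other, so the split between them is uncertain.

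Constant genes of switched antibodies were scarce. Igha, the IgA constant gene of mucosal antibodies, had 0, 0 and 0.0255 TPM in LL2 OK432 tumours, against 0, 0 and 0.111 TPM in LL2 Ctrl tumours. In CT26NYESO1 tumours it had 0.0897, 0 and 0.124 TPM with OK432, against 0, 0.313 and 0.0438 TPM in Ctrl. In CT26 tumours it had 1.21, 0.373 and 0.460 TPM with OK432, against 1.36, 4.31 and 1.02 TPM in Ctrl. The second CT26 Ctrl library was thus the highest for both Igha and Igkc. The IgG constant genes Ighg1, Ighg2b and Ighg2c summed to at most 0.379 TPM in a library and were listed at 0 in all LL2 OK432 libraries. Ighg2c was above 0 in 1 CT26 OK432, 1 CT26 Ctrl and 1 LL2 Ctrl library, at 0.0474, 0.136 and 0.114 TPM. BALB/c has Ighg2a in its place, and the labels do not state the host strain of each line. Constant genes of the gamma class are near copies, so reads may have been split between them.

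**Figure D3:**
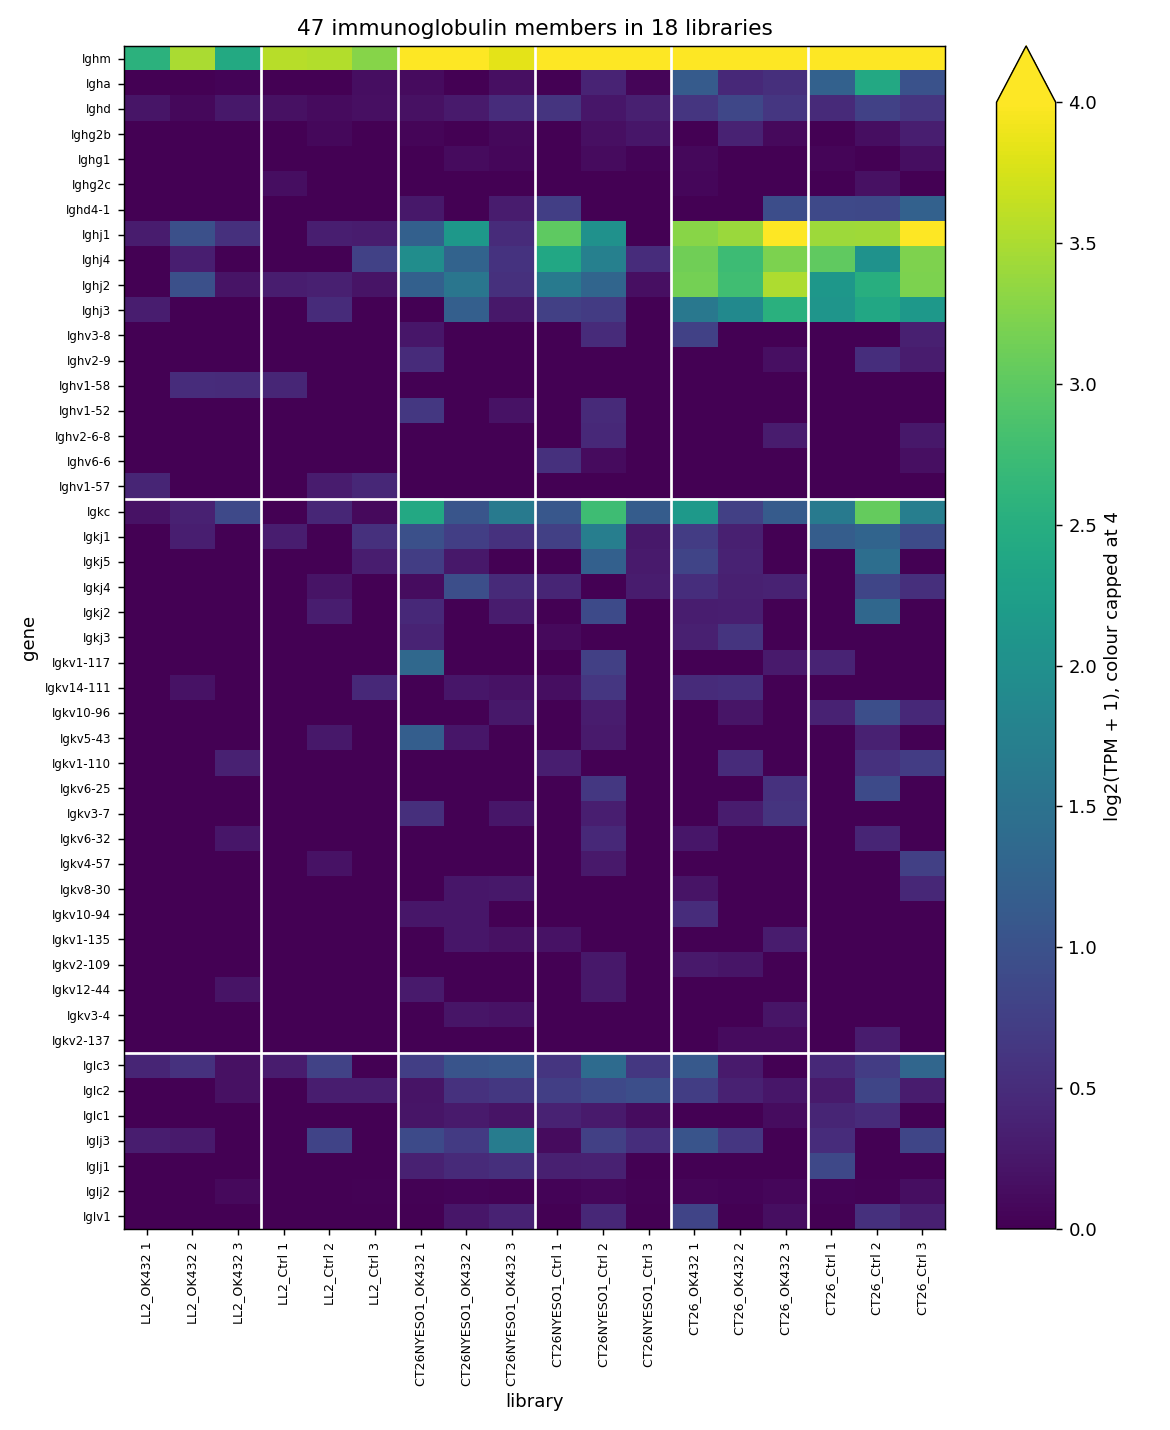
Log2(TPM + 1) of the 47 immunoglobulin members (rows, heavy chain, kappa and lambda blocks from top to bottom) in the 18 libraries (columns, LL2, CT26NYESO1 and CT26, OK432 left of Ctrl), with the colour capped at 4. Ighm is bright in nearly all columns and the heavy chain J segments in the CT26 columns, while V segments appear in scattered libraries. LL2 columns hold 7 to 15 members above 0, CT26NYESO1 columns 16 to 34 and CT26 columns 19 to 27.

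V segments, which encode the part of the antibody that differs most between B cell clones, were scattered and low. Of 216 V segments in the table, leaving out pseudogenes, 114 were at 0 in all 18 libraries, 53 were above 0 in 1 library and 26 in 2, and none was above 0 in more than 8. LL2 tumours had 19 V segments above 0 in any library, CT26NYESO1 tumours 61 and CT26 tumours 66. Of these, 8 were above 0 in LL2 alone, 23 in CT26NYESO1 alone and 32 in CT26 alone. The leading heavy chain V segment changed from library to library, with 15 different ones in 17 libraries and none in the third LL2 Ctrl library. The leading kappa V segments were 14 different ones in 18 libraries, of which the highest was Igkv1-117, at 1.55 TPM in the first CT26NYESO1 OK432 library and 0.697 TPM in the second CT26NYESO1 Ctrl library. The highest heavy chain V segment was Ighv1-15, at 0.973 TPM in that same CT26NYESO1 OK432 library. Among lambda V segments, Iglv1, Iglv2 and Iglv3 each led in some libraries, and 9 libraries had none above 0. Ighv1-58 was above 0 in 3 LL2 libraries, at 0.419 and 0.403 TPM in LL2 OK432 and 0.350 TPM in LL2 Ctrl tumours, and at 0 in all 12 libraries of the CT26 lines. Its neighbour in name Ighv1-57, a pseudogene named here after its values were seen, was likewise above 0 in 3 LL2 libraries and in no other. V segments of a family resemble each other, so a single V at under 2 TPM is an uncertain identity.

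The label of the set, genes of B and plasma cells, was checked against markers of those cells. Ms4a1 (CD20), a surface marker of B cells, ranged from 0.0202 to 0.255 TPM over the 18 libraries. Jchain, which joins IgM and IgA units in plasma cells, ranged from 0.0392 to 0.747 TPM, and Mzb1, a plasma cell chaperone of the endoplasmic reticulum, from 0 to 0.680 TPM. Cd79a and Cd79b, the signalling pair of the B cell receptor, reached 3.54 and 3.43 TPM, and Tnfrsf17 (BCMA) reached 2.65 TPM. Other members of these lists reached more, with Pax5, a B lineage transcription factor, at up to 3.90 TPM, Spib at up to 5.67 TPM and Prdm1 at up to 8.12 TPM, and these are named after their values were seen. Jchain was highest, at 0.747 TPM, in the second CT26NYESO1 Ctrl library, which also had the highest share of light chain constant genes per Ighm. The summed B cell list of 14 genes was 33.6 to 53.7 TPM in LL2 OK432, 32.9 to 75.3 in LL2 Ctrl, 69.3 to 76.2 in CT26NYESO1 OK432, 51.8 to 91.1 in CT26NYESO1 Ctrl, 94.8 to 108 in CT26 OK432 and 106 to 111 TPM in CT26 Ctrl tumours. Most of that sum was 1 gene, Cd72, at 28.8 to 94.5 TPM. The summed plasma cell list of 12 genes was 722 to 749 TPM in LL2 OK432, 689 to 708 in LL2 Ctrl, 477 to 523 in CT26NYESO1 OK432, 484 to 536 in CT26NYESO1 Ctrl, 833 to 843 in CT26 OK432 and 806 to 877 TPM in CT26 Ctrl tumours. It was led by the secretory genes Xbp1, Sdc1 and Txndc5, which many cell types express, and Cd72 and these 3 are named after their values were seen. Ms4a1, Jchain and Mzb1 were thus detected at low levels, while other members of both lists, Cd72 and Xbp1 among them, were high. How much of the immunoglobulin signal came from B and plasma cells was not tested. The recombinase gene Rag2 was 0 in all libraries and Rag1 reached 0.0208 TPM.

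OK-432 moved no immunoglobulin gene past the test in any tumour type. For testing, 16816 genes with at least 1 TPM in at least 3 libraries were fitted together with limma on log2(TPM + 1), and genes with an adjusted p (Benjamini-Hochberg) under 0.05 count as called. Of the 47, 9 passed this filter, namely Ighm, Ighj1, Ighj2, Ighj3, Ighj4, Igha, Igkc, Igkj1 and Iglc3. All but Ighm passed through tumours of the CT26 lines, where they were high, and reached 1 TPM in no LL2 library. Igha, for example, reached 1 TPM in CT26 tumours alone. Counts over these 9 therefore describe the genes that passed and not all 47. In LL2 tumours 0 of 9 were called for OK432 minus Ctrl, against 0.0178% of all genes tested. In CT26NYESO1 tumours 0 of 9 were called, against 0.666%, and in CT26 tumours 0 of 9, against 0%. For the average over the 3 tumour types 0 of 9 were called, against 0.172%. The median difference of the 9 was -0.04 in LL2, -0.05 in CT26NYESO1 and -0.19 in CT26 tumours, against -0.01, -0.02 and 0.00 over all genes. At an unadjusted p under 0.05 limma gave 0 of the 9 in LL2, 0 in CT26NYESO1, 2 in CT26 and 1 for the average. Over all 16816 genes that threshold was passed by 884 in LL2, 2727 in CT26NYESO1, 689 in CT26 and 1735 for the average.

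Ighm differed between OK432 and Ctrl by -0.63 on the log2 scale in LL2 tumours, with a 95% interval from -1.48 to 0.22. The difference was -0.58 in CT26NYESO1 tumours, from -1.43 to 0.27, and 0.18 in CT26 tumours, from -0.67 to 1.02. These intervals span 0, and those of LL2 and CT26NYESO1 also hold a fall of 1 log2 unit. The members with an unadjusted p under 0.05 were the alpha constant gene and a kappa J segment, both in CT26 tumours. Igha averaged 0.679 ± 0.457 TPM in CT26 OK432 and 2.23 ± 1.81 TPM in CT26 Ctrl tumours (SD, n = 3 each), a log2 difference of -0.84 ± 0.264 (SE) with a limma adjusted p of 0.906, and the groups overlapped. Igkj1, a kappa J segment, had 0.645, 0.279 and 0 TPM in CT26 OK432 tumours, against 1.27, 1.44 and 0.894 TPM in CT26 Ctrl tumours. Its groups did not overlap, and 5.1% of all genes tested were lower in the same way. Its log2 difference was -0.77 ± 0.281 (SE) with a limma adjusted p of 1. For the average Igkj1 gave -0.37 with a limma adjusted p of 0.451. Effects of OK432 were also compared between tumour types. For CT26NYESO1 minus CT26, 0 of the 9 were called, against 0% of all genes. For LL2 minus the mean of the CT26 lines, 0 of the 9 were called, against 0.00595%, and 0 of the 9 had an unadjusted p under 0.05 in either, where 1486 and 1048 of all 16816 genes did.

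The same OK432 comparisons gave few calls among the lists around antibody function. Of the tested genes, 0 of 8 on the B cell list, 0 of 8 on the plasma cell list, 0 of 9 on the list of B cell survival and attraction genes and 0 of 9 on the antibody receptor list were called in each tumour type. Neutrophil genes were the exception, with 3 of 6 higher in CT26NYESO1 OK432 tumours, against 0.41% of all genes tested. There the summed list was 81.5 to 687 TPM with OK432, against 11.03 to 17.3 TPM in Ctrl. In LL2 tumours 0 of 6 were called, and the sum was 133 to 218 TPM with OK432, against 20.0 to 33.6 TPM in Ctrl. In CT26 tumours 0 of 6 were called, and the sum was 101 to 177 TPM with OK432, against 26.8 to 32.6 TPM in Ctrl. For the average over the 3 tumour types 4 of 6 were higher, against 0.172% of all genes called in either direction.

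**Figure D4:**
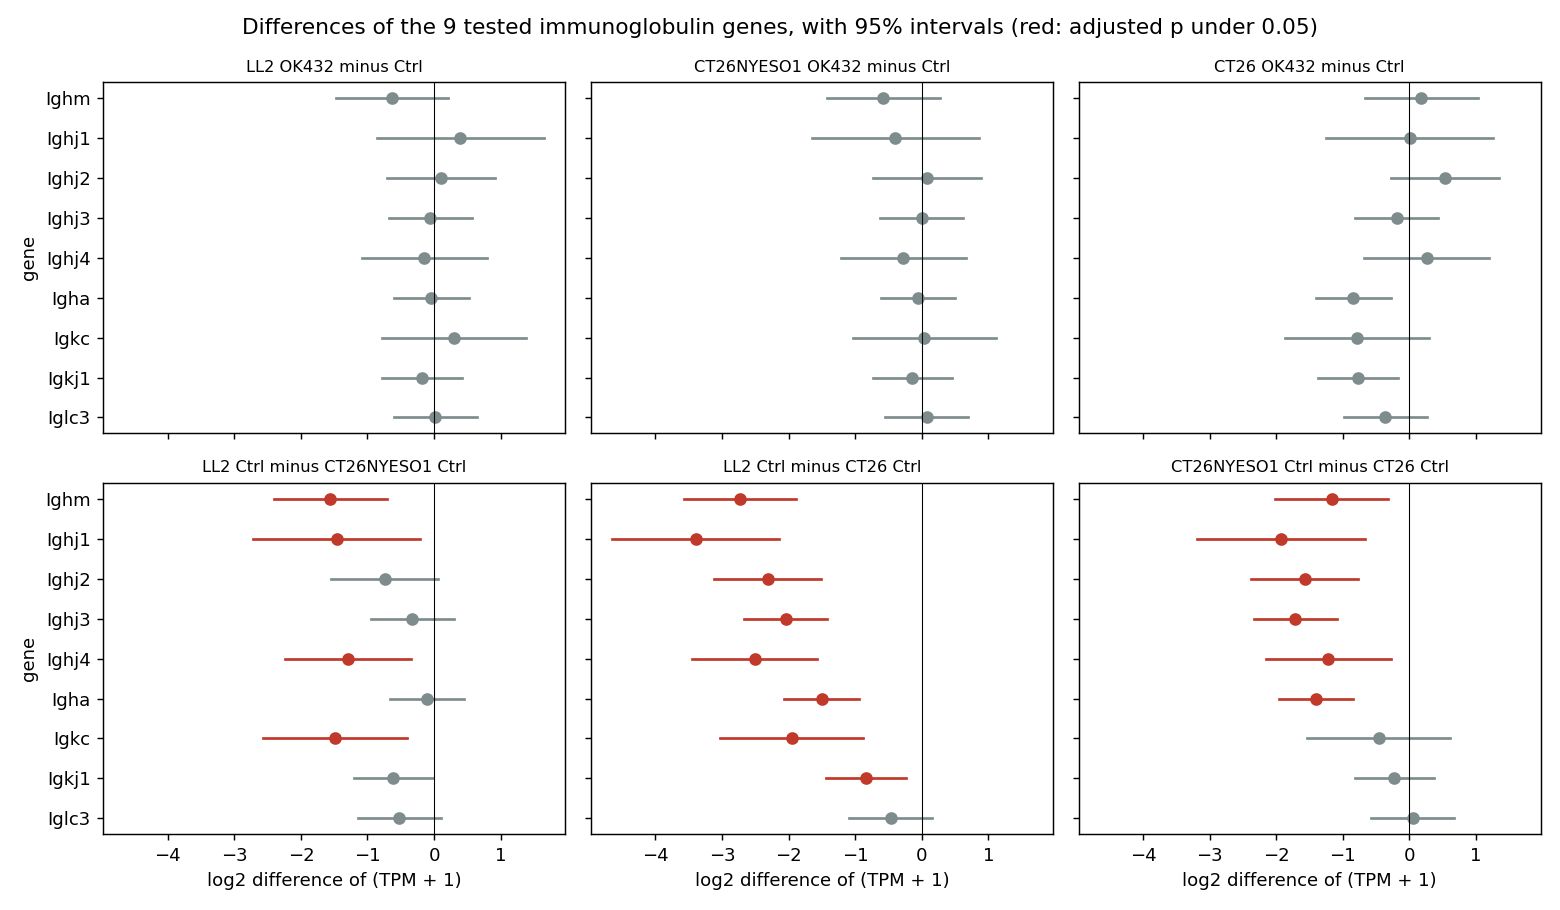
Differences in log2(TPM + 1) (x axis) of the 9 tested immunoglobulin genes (y axis), with 95% intervals from limma, for OK432 minus Ctrl within each tumour type (top) and between the controls (bottom); red marks an adjusted p under 0.05. No member is called in the top row, whereas 4, 8 and 6 members are lower in the bottom row from left to right.

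Between the controls of the 3 tumour types, several immunoglobulin genes differed, with LL2 lowest and CT26 highest for Ighm. These comparisons share control libraries, and tumour line and host strain cannot be told apart in those with LL2. In LL2 Ctrl tumours 8 of the 9 tested genes were lower than in CT26 Ctrl tumours and 0 higher, while 39.7% of all genes tested were lower and 29.1% higher. For those 8 the groups did not overlap, as for 41% of all genes in that direction. The median difference of the 9 was -2.04 on the log2 scale, against -0.08 over all genes. Ighm averaged 10.03 ± 1.20 TPM in LL2 Ctrl and 72.2 ± 8.45 TPM in CT26 Ctrl tumours (SD, n = 3 each), a log2 difference of -2.73 ± 0.393 (SE) with a limma adjusted p of 2.63e-05. Ighj1 averaged 0.165 TPM in LL2 Ctrl and 11.4 TPM in CT26 Ctrl tumours, with a log2 difference of -3.40 and a limma adjusted p of 0.000124. Igkc was also lower, by a log2 difference of -1.96 with a limma adjusted p of 0.00299, as were Igha, at -1.50, and Igkj1, at -0.84. Of the 9, only Ighm reached 1 TPM in any LL2 library. The others had passed the filter through tumours of the CT26 lines, where they were high, and Igha through CT26 tumours alone. Their calls and the median of the 9 are therefore no independent support for the direction. The Igkj1 call ended without the second LL2 Ctrl library, at -0.69 with a limma adjusted p of 0.0641. Iglc3 was not called, at 0.321 ± 0.367 TPM in LL2 Ctrl and 0.838 ± 0.582 TPM in CT26 Ctrl tumours.

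In CT26NYESO1 Ctrl tumours 6 of the 9 were lower than in CT26 Ctrl tumours and 0 higher, while 43.9% of all genes tested were lower and 21.1% higher. Their median was -1.22, against -0.18 over all genes. The 6 were Ighm, the 4 heavy chain J segments and Igha, while the light chain genes were not called. The groups overlapped for Ighj4 and not for the other 5, beside 45.2% of all genes that lay lower without overlap. Ighm averaged 35.6 ± 22.8 TPM in CT26NYESO1 Ctrl and 72.2 ± 8.45 TPM in CT26 Ctrl tumours, a log2 difference of -1.17 ± 0.393 (SE) with a limma adjusted p of 0.0180. That call rests on single libraries, since without the third CT26NYESO1 Ctrl library the difference was -0.80 with a limma adjusted p of 0.0922, and it also ended without the second CT26NYESO1 Ctrl or the third CT26 Ctrl library. The Ighj4 call, at -1.22, likewise ended without the first or the third CT26 Ctrl library or the third CT26NYESO1 Ctrl library, where it was -0.70 with a limma adjusted p of 0.139. Without that last library Ighj1 stayed called, at -1.09 against -1.93 with all libraries. Ighj3 gave -1.72 with a limma adjusted p of 7.42e-05, and Igha -1.40 with 0.000180. Both had passed the filter through CT26 tumours, where they were high, so these 2 calls are no independent support for the direction. Igkc averaged 2.698 ± 2.63 TPM in CT26NYESO1 Ctrl and 3.90 ± 2.98 TPM in CT26 Ctrl tumours, a log2 difference of -0.46 with a 95% interval from -1.54 to 0.62.

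LL2 Ctrl tumours had 4 of the 9 lower than CT26NYESO1 Ctrl tumours and 0 higher, while 27.5% of all genes tested were lower and 38.8% higher. The median was -0.74, against 0.10 over all genes. Ighm was lower by a log2 difference of -1.56 with a limma adjusted p of 0.00307, and Igkc by -1.49 with 0.0172. Ighj4 gave -1.29 with a limma adjusted p of 0.0177 and Ighj1 -1.46 with 0.0398, and for both the groups overlapped, unlike Ighm and Igkc, beside 28.9% of all genes that lay lower without overlap. Both J calls also ended without single libraries, and without the first CT26NYESO1 Ctrl library Ighj1 gave -0.80 and Ighj4 -0.87. The Igkc call ended without the second CT26NYESO1 Ctrl library, at -0.95 with a limma adjusted p of 0.0937. Igkc, Ighj1 and Ighj4 reached 1 TPM in no LL2 library and had passed the filter through tumours of the CT26 lines. Calls of these genes are therefore no independent support for the direction.

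When all 47 were kept, by testing 30674 genes with a TPM above 0 in at least 3 libraries, 13 were lower in LL2 Ctrl than in CT26 Ctrl tumours, against 25.2% of all genes tested, so over all 47 the share was near the background. Those added were Ighd, Ighd4-1, Iglc1, Igkv1-110 and Igkv10-96 (the last named after its values were seen), of which all but Ighd were at 0 in the LL2 Ctrl libraries. By the same test 8 of 47 were lower in CT26NYESO1 Ctrl than in CT26 Ctrl tumours, against 26.7% of all genes, and 6 of 47 were lower in LL2 Ctrl than in CT26NYESO1 Ctrl tumours, against 16.9%. No member was higher in any of the 3. Over the 47, the median difference between LL2 Ctrl and CT26 Ctrl tumours was -0.18.

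Genes of other cells differed between the same controls, and their part in the immunoglobulin differences was not tested. In LL2 Ctrl against CT26 Ctrl tumours, 8 of 8 tested B cell genes, 9 of 9 antibody receptor genes, 5 of 5 macrophage genes and 5 of 5 endothelial and fibroblast genes were lower, as were 2 of 7 T cell genes. Plasma cell genes had 5 of 8 lower and 1 higher, and skeletal muscle genes 3 of 5 higher and 0 lower. These counts stand beside the 39.7% of all genes that were lower and the 29.1% that were higher. Cd79a averaged 0.489 TPM in LL2 Ctrl and 3.34 TPM in CT26 Ctrl tumours, a log2 difference of -1.54 with a limma adjusted p of 1.44e-07. Between CT26NYESO1 Ctrl and CT26 Ctrl tumours 5 of 5 endothelial and fibroblast genes and 6 of 8 genes of B cell antigen receptor signalling were lower and 0 higher, beside 43.9% of all genes. In the same comparison 5 of 7 T cell genes were higher and 0 lower, and B cell genes had 1 higher and 2 lower of 8. Antibody receptor genes had 4 higher and 2 lower of 9, and plasma cell genes 2 higher and 3 lower of 8. Over all genes tested 21.1% were higher and 43.9% lower. Cd79a averaged 2.50 TPM in CT26NYESO1 Ctrl and 3.34 TPM in CT26 Ctrl tumours, with a limma adjusted p of 0.0873. The B cell genes called lower were Cd79b at 1.21 TPM in CT26NYESO1 Ctrl and 2.73 TPM in CT26 Ctrl tumours, and Pax5 at 0.131 TPM in CT26NYESO1 Ctrl and 3.78 TPM in CT26 Ctrl tumours. The gene called higher was Spib, at 3.85 TPM in CT26NYESO1 Ctrl and 1.16 TPM in CT26 Ctrl tumours. The receptors that bind antibody were abundant beside the antibody genes themselves, with Fcgr3, an activating IgG receptor of myeloid cells, at 79.1 to 244 TPM over the 18 libraries. Pigr, which carries IgA and IgM across epithelia, was at most 0.0648 TPM (named after its values were seen).

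Ighmbp2, which the name rule also takes, did not follow the immunoglobulin genes. It averaged 9.16 TPM in LL2 Ctrl and 6.01 TPM in CT26 Ctrl tumours, and was higher by a log2 difference of 0.54 with a limma adjusted p of 9.22e-06. It is encoded on chromosome 19, away from the immunoglobulin loci.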

How the data were processed

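Tumour RNA (TRIzol) went into stranded mRNA libraries, per the labels' protocols. Trim Galore 0.6.5, STAR 2.7.3a, StringTie 2.1.2 and the build mm10 appear in the submitters' processing notes. For the annotation and the strand setting nothing is stated there, so reads of antisense or overlapping genes may not have been kept apart. The authors deposited 1 table of TPM values, in which each of 18 libraries sums to 1000000 and 24036 to 25858 genes are above 0. TPM keeps no depth, so counting intervals cannot be had, and a value of 0 can be a failed estimate.

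Values were analysed as log2(TPM + 1), which understates changes of low genes. A limma 3.58.1 model under R 4.3.3 (robust, trended moderation) fitted 6 group means with 12 residual degrees of freedom. All 394 matching names were found in GENCODE M21. The procedure was tested on simulated data. The members and marker lists were chosen with earlier results of these data known. Genes named are the constant-region members, the 8 D, J and V segments with the highest mean TPM, the leading V segment of each library and locus, the 4 largest called rises and falls in each comparison and the first 4 members of each marker list. Others are marked as named after their values were seen. Alternatives covered the pseudocount, the filter, the scaling, the libraries fitted, a replicate block and each library left out. Searches for octamer and recombination signal motifs around V segments were not done here. The level of 1 marker gene is not reported here.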

Additional observations from a re-analysis of the deposited data

How the results depend on the processing

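For OK432 the number of immunoglobulin genes called was 0 in each comparison under every alternative run, the replicate block included. Between controls, LL2 minus CT26 gave 13 lower genes, against 8, with no minimum above 0 TPM and 4 at a minimum of 5 TPM, where only 4 were tested. With only the libraries of the comparison fitted, CT26NYESO1 minus CT26 gave 3, against 6, and LL2 minus CT26NYESO1 gave 2, against 4. With each library left out in turn, the counts ran from 7 to 8 for LL2 minus CT26, from 4 to 6 for CT26NYESO1 minus CT26 and from 1 to 6 for LL2 minus CT26NYESO1. The last gave 1 without the second CT26NYESO1 Ctrl library and 2 without the first CT26NYESO1 Ctrl, the first LL2 Ctrl or the second LL2 Ctrl library. The cause was not tested. For single called genes, 17 of 324 fits without 1 library and 8 of 155 other fits ended the call, and none turned the direction. Replicate numbers gave no clear sign of pairing, with same-numbered deviations correlated at -0.12 to 0.22 and 1 of 9 pairs over 0.1. Deviations from means of 3 libraries cannot exclude pairing or a shared batch. With the replicate block the control comparisons gave 8, 6 and 4 lower genes, as without it. Median-of-ratios scaling moved the median of all genes between CT26NYESO1 and CT26 controls from -0.18 to 0. The summed TPM of the members in CT26 tumours was 86.7 with OK432 and 80.6 in Ctrl from constant genes only, against 121 and 114 from all 47.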
